A study of Mus musculus with 6 samples.

Results

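Hif1a and 9 genes known as targets of the hypoxia-inducible factors (HIF) were followed in single cells of the hippocampal CA1 region of mice. They were taken by name as 10 of the 20234 genes of the count table: Hif1a, Vegfa, Slc2a1, Pgk1, Ldha, Pdk1, Bnip3, Ankrd37, Pfkfb3 and Ddit4. Male wild type C57Bl6 mice received a single intraperitoneal injection at postnatal day 28, either placebo (mice 1, 3 and 5) or 5000 IU/kg recombinant human erythropoietin (EPO; mice 2, 4 and 6), and CA1 was taken 6 h later. CA1 was digested with papain, and cells were captured in droplets by Drop-seq, which counts unique molecular identifiers (UMIs) at the 3' ends of transcripts. The labels name no exposure to hypoxia for any of the 6 mice. The study asked how cells of CA1 respond at once to EPO, itself a classical HIF target. Mice 1, 2 and 3 carry the sample mark D1 and mice 4, 5 and 6 the mark D2, which is not explained, so D is given here only as that mark.

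HIF is a pair of proteins. The α subunit, encoded by Hif1a or Epas1, is made at all times and destroyed while oxygen is plentiful, because prolyl hydroxylases (Egln1 to Egln3) mark it for the Vhl ubiquitin ligase. When oxygen falls, the α subunit persists, joins Arnt and binds short DNA motifs with the core RCGTG near its target genes. The messenger RNA of Hif1a is therefore no measure of the protein. Among the targets, Slc2a1 (GLUT1) carries glucose across membranes, Pfkfb3, Pgk1 and Ldha act in or on glycolysis, Pdk1 holds pyruvate back from the mitochondrion, Bnip3 acts in mitophagy, Vegfa drives vessel growth, Ddit4 (REDD1) restrains mTORC1, and Ankrd37 is an ankyrin repeat protein used as a marker of HIF activity. Ddit4 is also known to respond to glucocorticoids and to neuronal activity.

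The HIF core motif was looked for around the start sites as ACGTG or GCGTG on either strand (CACGTG counts once on each strand), in the RefSeq windows of GRCm38.p6 that run from 250 bases before to 50 bases after each start. All 10 genes had a window with the motif (12 of their 14 windows), against 46.7% of 27025 genes and 43.8% of 32851 windows. A match describes the letters of the window and is not a site of binding. Below are the 160 bases before the start of 6 of these genes, 5' to 3' on the gene's own strand, with the motif in capitals in whichever strand it lies. Slc2a1, Ankrd37 and Ddit4 are shown because they were the highest in endothelial-like cells, and Pgk1, Ldha, Bnip3 and Ddit4 because they were lower in neurons of high mitochondrial share.
Slc2a1, chr4:119108585-119108744, plus strand: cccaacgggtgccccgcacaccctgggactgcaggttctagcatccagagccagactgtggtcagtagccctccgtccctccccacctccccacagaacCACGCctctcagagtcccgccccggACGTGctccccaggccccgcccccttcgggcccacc
Ankrd37, chr8:45999851-46000010, minus strand: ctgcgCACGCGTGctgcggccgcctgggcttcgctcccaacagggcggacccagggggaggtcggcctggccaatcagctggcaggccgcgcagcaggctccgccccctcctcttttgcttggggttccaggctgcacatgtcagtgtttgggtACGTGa
Ddit4, chr10:59951771-59951930, minus strand: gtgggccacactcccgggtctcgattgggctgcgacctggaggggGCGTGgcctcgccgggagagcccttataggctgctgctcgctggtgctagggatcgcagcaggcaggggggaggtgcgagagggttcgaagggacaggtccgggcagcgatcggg
Pgk1, chrX:106186940-106187099, plus strand: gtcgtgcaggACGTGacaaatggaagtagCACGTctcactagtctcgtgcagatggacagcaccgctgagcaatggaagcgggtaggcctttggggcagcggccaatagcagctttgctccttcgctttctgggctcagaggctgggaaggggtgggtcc
Ldha, chr7:46845644-46845803, plus strand: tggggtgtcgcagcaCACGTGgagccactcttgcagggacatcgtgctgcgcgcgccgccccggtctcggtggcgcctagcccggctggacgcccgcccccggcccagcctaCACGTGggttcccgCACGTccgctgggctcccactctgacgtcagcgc
Bnip3, chr7:138909507-138909666, minus strand: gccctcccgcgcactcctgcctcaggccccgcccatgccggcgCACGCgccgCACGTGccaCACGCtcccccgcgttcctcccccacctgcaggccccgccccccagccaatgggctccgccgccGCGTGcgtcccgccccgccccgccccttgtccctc

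The table held 1000 barcodes for each mouse. Barcodes with 501 to 8000 genes and at most 40% mitochondrial UMIs were taken as cells, which left 1632 cells, 684 of placebo and 948 of EPO mice. Cells per mouse ranged from 90 in placebo mouse 3 to 405 in EPO mouse 4, and retained UMIs from 267231 to 2150763 in the same mice. The median mitochondrial share of a cell lay between 4.61% (EPO mouse 6) and 19.0% (EPO mouse 2). A set of 41 retained barcodes was found in both placebo mouse 1 and EPO mouse 4. In 41 of the 41 pairs the cell of mouse 4 was more like the cell of the same barcode in mouse 1 than like its other cells, and the pairs correlated at a median r of 0.712, against 0.345 for other pairs. The copy in mouse 4 had fewer UMIs in all 41 pairs (median 2783 against 11211). These cells made up 10.1% of the cells and 7.16% of the UMIs of mouse 4. How they came to be in both was not tested. Levels by class, the class and EPO comparisons, co-variation and the mitochondrial split were also computed without them. Other results are given only with these cells included. The numbers of the 10 genes called in each class, given further on, were the same without them.

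Cells fell into 14 clusters, built without the 10 genes and the further HIF genes, and 13 of them were named after standard markers. Glutamatergic-like cells were the most frequent with 819 cells, followed by 232 astrocyte-like, 161 oligodendrocyte-like, 98 microglia-like, 91 endothelial-like, 80 GABAergic-like, 71 OPC-like (oligodendrocyte precursor) and 52 mural-like cells, while 28 cells stayed unnamed. The marker lists marked their classes, with a pair of exceptions. Oligodendrocyte markers summed to 49698 UMIs per 1000000 nuclear-encoded UMIs (CPM) in OPC-like cells, more than the OPC markers there (6825 CPM), against 192503 CPM in oligodendrocyte-like cells. Erythroid markers summed to 52339 CPM in endothelial-like cells and to between 227 and 483 CPM in the other named classes. Levels below are CPM, computed per mouse and class and averaged over the mice with at least 10 cells of the class. UMIs carry no transcript length, so a level is compared between classes for 1 gene and never between genes.

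The 10 genes gave between 112 (Pfkfb3) and 1120 (Ldha) UMIs in the retained cells, and all had UMIs in each mouse. Slc2a1 and Ankrd37 were highest in endothelial-like cells, Vegfa in astrocyte-like and OPC-like cells, and Pdk1 in microglia-like and OPC-like cells. Ldha was high in neurons of the glutamatergic-like class and in both vascular classes, and low in oligodendrocyte-like cells. Hif1a and Pfkfb3 had no class that stood apart.

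**Figure D1:**
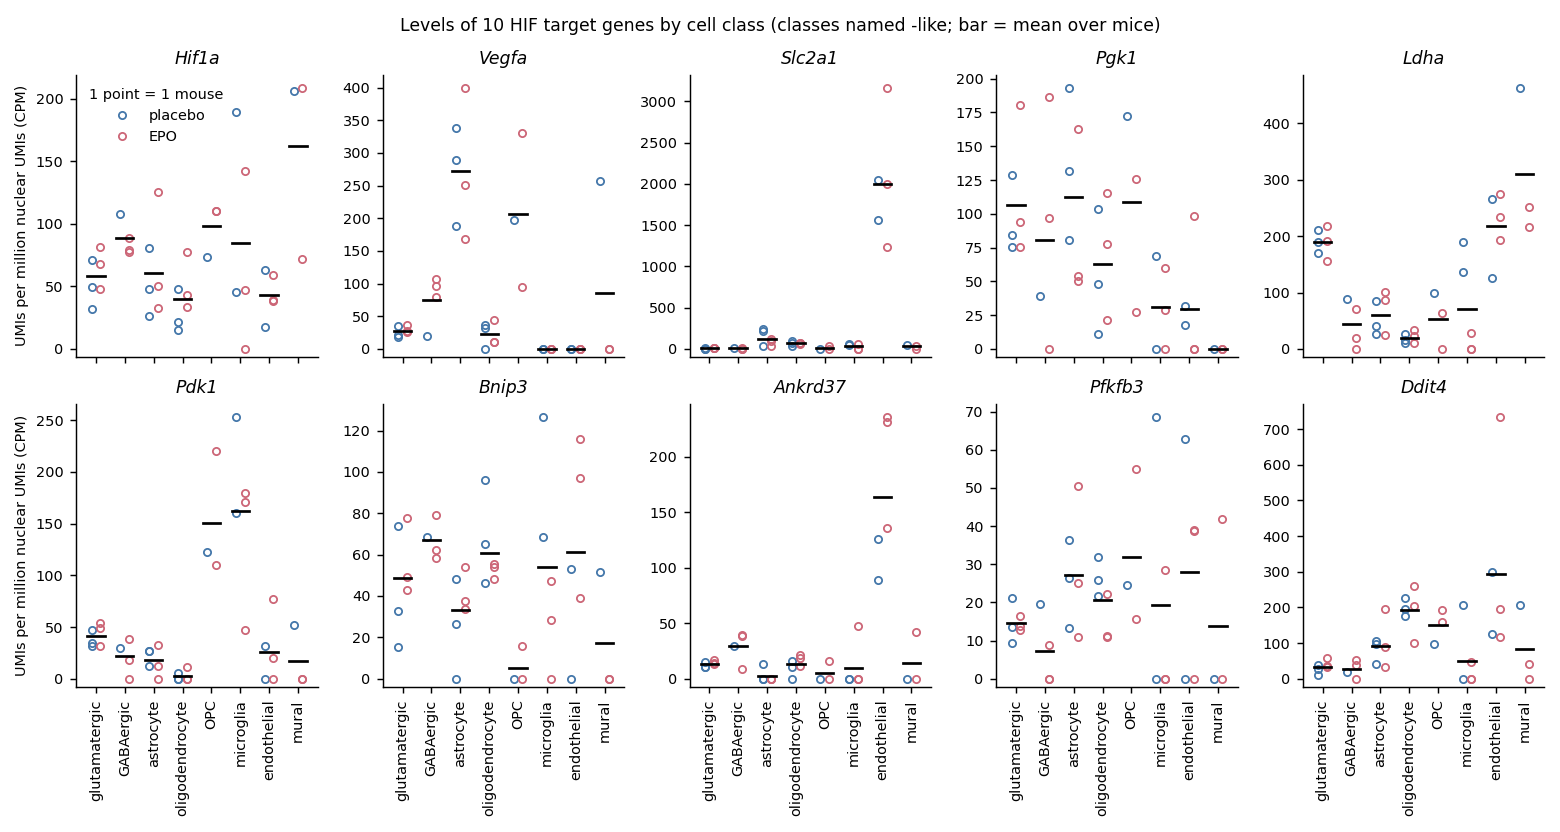
Level of each gene (vertical axis, UMIs per 1000000 nuclear-encoded UMIs, a separate linear scale per gene) in 8 cell classes (horizontal axis); each open circle is 1 mouse with at least 10 cells of the class, blue for placebo and red for EPO, and the bar is the mean over mice. Slc2a1 and Ankrd37 stand apart in endothelial-like cells, with means of 2001 and 163 CPM, and Vegfa sits at 0 in every microglia-like and endothelial-like sample.

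Hif1a, the regulator, was found in every named class. Its mean ranged from 40.0 ± 22.3 CPM (SD, n = 6 mice) in oligodendrocyte-like cells to 162 ± 78.3 CPM (SD, n = 3) in mural-like cells. In glutamatergic-like cells the 6 mice lay between 31.8 and 81.2 CPM. No neighbouring classes in the order of Hif1a levels had mice that did not overlap.

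Slc2a1, the glucose transporter of the blood-brain barrier, was highest in endothelial-like cells. Endothelial-like cells of mice 1, 2, 4, 5 and 6 held 1557, 2003, 1236, 2044 and 3165 CPM. The next class, astrocyte-like cells, reached 123 ± 86.7 CPM (SD, n = 6), with a highest mouse of 237 CPM, so the mice of these classes did not overlap. Oligodendrocyte-like cells held 68.4 ± 20.8 CPM (SD, n = 6) and glutamatergic-like cells 6.56 ± 4.43 CPM (SD, n = 6). With each cell thinned to 800 UMIs, 62.5% of 88 endothelial-like cells had a Slc2a1 UMI (95% exact binomial interval 51.5% to 72.6%, which covers counting error only), against 0.612% of 817 glutamatergic-like cells (0.199% to 1.42%). Without thinning these shares were 92.3% and 4.03%, at median depths of 1667 and 3781 UMIs. Since erythroid RNA was also found in this class, levels were taken again over the 75 of 91 endothelial-like cells with at most 1% erythroid UMIs, where Slc2a1 stood at 2135 ± 880 CPM (SD, n = 5).

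Vegfa, the secreted ligand for which endothelial cells carry the receptors Flt1 and Kdr, was highest in astrocyte-like cells. Astrocyte-like cells of mice 1 to 6 held 338, 169, 289, 250.9, 188 and 400 CPM. Glutamatergic-like cells of the same mice held 35.7, 36.9, 21.2, 26.6, 18.3 and 28.2 CPM, below every astrocyte-like sample. OPC-like cells held 207 ± 118 CPM (SD, n = 3) and overlapped with astrocyte-like cells. GABAergic-like cells followed with 75.7 ± 39.0 CPM (SD, n = 4). No Vegfa UMI was seen in endothelial-like or microglia-like cells, which allows up to 13.001 and 22.6 CPM over all cells of these classes (3 counts, counting error only). Mural-like cells held 257 CPM in placebo mouse 1 and 0 in the other mice, from 5 UMIs in all. At 800 UMIs per cell, 16.4% of astrocyte-like cells (11.9% to 21.8%) and 2.33% of glutamatergic-like cells (1.41% to 3.61%) had a Vegfa UMI, and unthinned the shares were 33.2% and 13.6%.

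Of the glycolytic genes, Ldha (lactate dehydrogenase A) was the most even over mice in neurons. Glutamatergic-like cells of mice 1 to 6 held 211, 157, 169, 191, 190 and 218 CPM. Mural-like cells held 310 ± 134 CPM (SD, n = 3) and endothelial-like cells 218 ± 60.9 CPM (SD, n = 5), and both overlapped with glutamatergic-like cells. Astrocyte-like cells held 60.6 ± 33.9 CPM (SD, n = 6), with a highest mouse of 101.2 CPM, and oligodendrocyte-like cells were lowest with 19.9 ± 8.95 CPM (SD, n = 6). Pgk1 (phosphoglycerate kinase 1) had close means in astrocyte-like, OPC-like and glutamatergic-like cells, at 112 ± 59.6 (SD, n = 6), 109 ± 73.9 (SD, n = 3) and 106 ± 41.5 CPM (SD, n = 6), but the OPC-like mean was 37.3 CPM in cells with at most 5% oligodendrocyte UMIs. Endothelial-like cells held 29.4 ± 40.6 CPM (SD, n = 5), and in mural-like cells no Pgk1 UMI was seen, which allows up to 37.4 CPM. Reads of Pgk1 and Ldha can be shared with processed copies elsewhere in the genome, so their levels are uncertain to that extent. Pfkfb3, which makes an activator of phosphofructokinase, ranged from 7.13 to 31.8 CPM over the classes, from 112 UMIs in all, and no neighbouring classes were apart.

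Pdk1, the pyruvate dehydrogenase kinase, was highest in microglia-like cells with 162 ± 74.0 CPM (SD, n = 5) and OPC-like cells with 151 ± 59.97 CPM (SD, n = 3). Glutamatergic-like cells lay lower, at 41.3 ± 9.94 CPM (SD, n = 6), and did not overlap with OPC-like cells, although in the OPC-like cells with at most 5% oligodendrocyte UMIs the lowest mouse stood at 43.2 CPM, within the glutamatergic-like range. Oligodendrocyte-like cells were lowest at 2.72 ± 4.61 CPM (SD, n = 6), from 4 UMIs. Bnip3 ran from 48.7 ± 24.0 CPM (SD, n = 6) in glutamatergic-like cells to 67.1 ± 9.18 CPM (SD, n = 4) in GABAergic-like cells, with lower means in astrocyte-like (33.3 CPM), mural-like (17.2 CPM) and OPC-like cells (5.26 CPM, 3 UMIs).

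Ankrd37 was also highest in endothelial-like cells. Endothelial-like cells of mice 1, 2, 4, 5 and 6 held 88.5, 136, 235, 126 and 232 CPM. In placebo mouse 3, whose 9 endothelial-like cells were too few to enter, Ankrd37 stood at 0 and Slc2a1 at 3186 CPM. GABAergic-like cells came next with 29.2 ± 14.3 CPM (SD, n = 4) and did not overlap with them, and astrocyte-like cells had 1 UMI in all. Ddit4 was high in endothelial-like cells, with 301, 194, 118, 126 and 733 CPM in mice 1, 2, 4, 5 and 6, so EPO mouse 6 was well above the others. Oligodendrocyte-like cells held 194 ± 54.3 CPM (SD, n = 6), OPC-like cells 150 ± 47.6 CPM (SD, n = 3), astrocyte-like cells 93.0 ± 58.0 CPM (SD, n = 6) and glutamatergic-like cells 33.9 ± 15.8 CPM (SD, n = 6). In the endothelial-like cells with few erythroid UMIs, Ankrd37 and Ddit4 stood at 168 ± 79.3 and 320 ± 259 CPM (SD, n = 5). In the 57 of 71 OPC-like cells with at most 5% oligodendrocyte UMIs, Ddit4 stood at 26.2 ± 26.5 CPM (SD, n = 3, 4 UMIs) and Pgk1 at 37.3 ± 44.4 CPM, whereas Vegfa was 312 ± 214 CPM and Pdk1 92.3 ± 43.9 CPM. Both limits on foreign markers were set after the data were seen.

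Each class was then set against glutamatergic-like cells of the same mice by edgeR's quasi-likelihood test on counts summed per mouse, with Benjamini-Hochberg adjustment over all genes tested. The classes were defined on other genes of the same cells, so many genes were called in every such comparison, and the counts of HIF genes are read beside that share. Only genes with enough counts enter the test, and a gene high in 1 class enters more readily. Log2 fold changes are given with their standard error (SE).

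**Figure D2:**
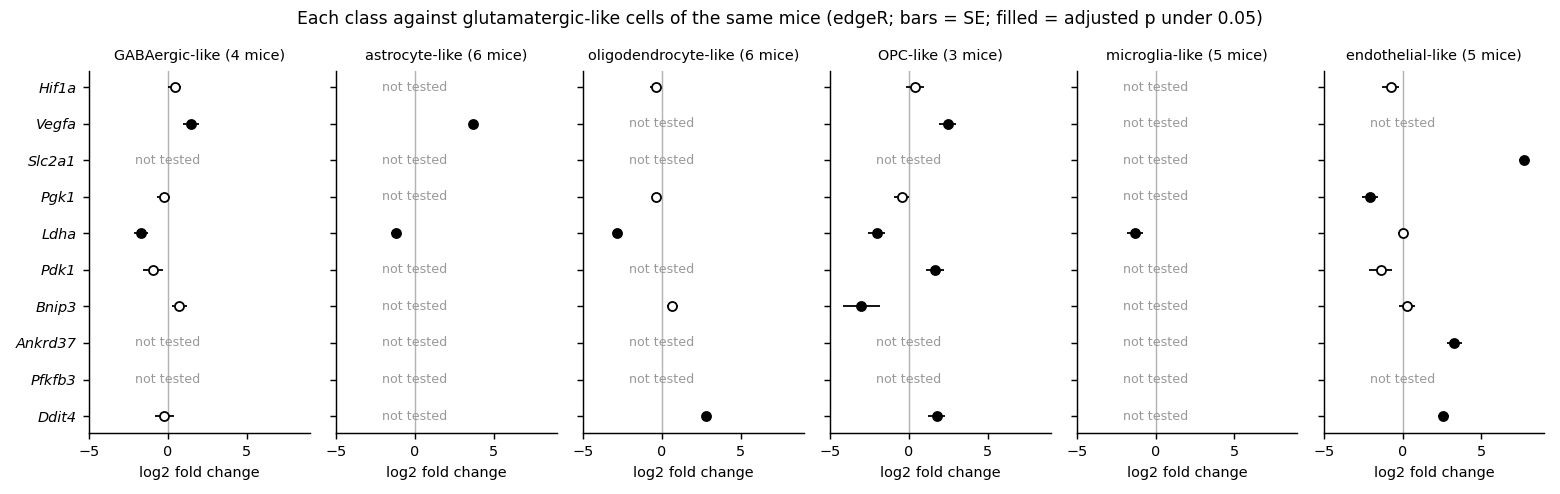
Log2 fold change of each gene (horizontal axis) in 6 classes against glutamatergic-like cells of the same mice; points are edgeR estimates, bars are SE, and filled points passed an adjusted p of 0.05. Ldha lies left of 0 and filled in the first 5 panels and at 0.04 in endothelial-like cells, and Slc2a1 lies at 7.68 in endothelial-like cells.

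In astrocyte-like cells (n = 6 mice), Vegfa was higher by 3.69 (SE 0.28, edgeR adjusted p = 6.18e-11) and Ldha fell by 1.19 (SE 0.32, adjusted p = 0.00243) on the log2 scale. These were the 2 of 10 genes that could be tested, where 65.7% of all tested genes were called. Without the filter on low counts all 10 were tested and 26.2% of all genes were called, and 5 of the 10 passed: Vegfa, Ldha, Slc2a1 (3.40, SE 0.47, adjusted p = 1.06e-11), Ddit4 (1.05, SE 0.36, adjusted p = 0.0172) and Pdk1 (-1.42, SE 0.53, adjusted p = 0.0323). The median of all genes in that fit was -0.70.

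In oligodendrocyte-like cells (n = 6), Ddit4 was higher by 2.82 (SE 0.24, edgeR adjusted p = 5.37e-13) and Ldha lower by a log2 change of -2.81 (SE 0.30, adjusted p = 2.96e-10). They were 2 of the 5 tested genes, where 66.3% of all genes were called. Bnip3 had a value of 0.67 (SE 0.33, adjusted p = 0.0675) and did not pass. Without the filter on low counts 31.2% of all genes were called, with a median of -0.77, and Slc2a1 (3.09, SE 0.38, adjusted p = 8.02e-15), Pdk1 (-3.04, SE 0.57, adjusted p = 6.98e-07) and Pgk1 (-0.67, SE 0.26, adjusted p = 0.0371) also passed. That Pgk1 value lies above the median of all genes in that fit.

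In endothelial-like cells (n = 5), 4 of 8 tested genes were called by edgeR, where 52.3% of all genes were. Slc2a1 was higher by 7.68 (SE 0.30, adjusted p = 4.16e-139), Ankrd37 by 3.29 (SE 0.45, adjusted p = 1.72e-12) and Ddit4 by 2.57 (SE 0.35, adjusted p = 1.20e-12), while Pgk1 fell by 2.07 (SE 0.53, adjusted p = 0.000301). Ldha differed by 0.04 (SE 0.30, adjusted p = 0.919), with an estimate that turned below 0 under 8 of 12 alternatives. Without the filter, 27.0% of all genes and 6 of the 10 were called, with Vegfa and Pdk1 lower.

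In OPC-like cells, of which only 3 mice had enough, 5 of 7 tested genes were called by edgeR, against 29.5% of all genes. Vegfa was higher by 2.47 (SE 0.53, adjusted p = 2.61e-05), Ddit4 by 1.78 (SE 0.55, adjusted p = 0.00557) and Pdk1 by 1.66 (SE 0.55, adjusted p = 0.0111). Ldha fell by 2.04 (SE 0.51, adjusted p = 0.000449) and Bnip3 fell by 3.01 (SE 1.19, adjusted p = 0.0406). The Bnip3 call was lost with DESeq2 and without doublets, and the Pdk1 call without the filter, where 11.9% of all genes were called. The Ddit4 direction was not kept in the OPC-like cells with at most 5% oligodendrocyte UMIs, where its level of 26.2 CPM lay below the 33.9 CPM of glutamatergic-like cells.

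In GABAergic-like cells (n = 4), 2 of 7 tested genes were called by edgeR, against 14.0% of all genes. Ldha fell by 1.71 (SE 0.41, adjusted p = 0.000611). Vegfa was higher by 1.47 (SE 0.51, adjusted p = 0.0310), and this call was lost under 6 of 11 alternatives, among them leaving out EPO mouse 2, 4 or 6. Without the filter, Ldha was the only one of the 10 called, where 6.28% of all genes were. In microglia-like cells (n = 5), Ldha was the only gene with enough counts and fell by 1.29 (SE 0.50, edgeR adjusted p = 0.0168), where 65.9% of all genes were called. This call was lost under 4 of 12 alternatives, among them leaving out EPO mouse 2, 4 or 6. Without the filter, 22.3% of all genes and 3 of the 10 were called, all lower (Ldha, Pgk1 and Vegfa).

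Further genes of the pathway were described in the same fits from a list of 52, of which 51 were in the table: regulators, metabolic targets and other targets. Endothelial-like cells had 21 of 31 tested genes called, 10 higher and 11 lower, beside 52.3% of all genes, with a list median of -0.41 beside -0.43 for all genes. The higher ones were led by the Vegfa receptors Flt1 (9.20, SE 0.36) and Kdr (7.99, SE 0.39), the HIF-2α gene Epas1 (7.49, SE 0.32), the lactate transporter Slc16a1 (4.88, SE 0.28) and the transferrin receptor Tfrc (3.38, SE 0.24). Of the metabolic targets 9 were lower in these cells, among them Aldoa and Tpi1, and 1 was higher (Slc16a1). Oligodendrocyte-like cells had 15 of 22 called, 6 higher and 9 lower, a share close to the 66.3% of all genes, with transferrin (Trf, 7.58, SE 0.38), Ndrg1 (4.35, SE 0.19), Slc16a1 (2.153, SE 0.29) and Bnip3l (1.95, SE 0.20) higher and the glycolytic enzyme Tpi1 (-1.77, SE 0.23) lower. Flt1 and Kdr are also standard markers of endothelium, and Trf of oligodendrocytes. OPC-like cells had 12 of 30 called, 3 higher and 9 lower, beside 29.5% of all genes, with P4ha1 (2.001, SE 0.41) higher and Aldoa (-2.75, SE 0.37), Hk1 (-4.59, SE 0.88), Tpi1 and Pfkl lower. Microglia-like cells had 7 of 7 called, beside 65.9% of all genes, with hexokinase 2 (Hk2, 7.16, SE 0.60) and Trf (4.72, SE 0.35) higher and Aldoa, Tpi1 and Gpi1 among the 5 lower. Astrocyte-like cells had 2 of 8 called, below the 65.7% of all genes, the glycolytic enzymes Aldoc (7.11, SE 0.30) and Eno1 (1.03, SE 0.18), both higher. GABAergic-like cells had 6 of 26 called, all lower, beside 14.0% of all genes, among them Bhlhe40 (-3.47, SE 0.78), Ndrg1, P4ha1, Pfkl and Eno1.

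A pair of other lists was taken because Ddit4 can answer to them. Called of tested genes follow for GABAergic-like, astrocyte-like, oligodendrocyte-like, OPC-like, microglia-like and endothelial-like cells, in this order. For immediate early genes they were 3 of 4, 2 of 2, 2 of 2, 2 of 5, 2 of 2 and 5 of 6. Of those called, 0, 1, 1, 0, 1 and 3 were higher and 3, 1, 1, 2, 1 and 2 lower. Egr1 was lower in each class, by log2 changes from -4.71 to -1.02. Ier2 was higher in endothelial-like cells (4.33) and Jun in microglia-like cells (2.30). Glucocorticoid-responsive genes gave 1 of 8, 4 of 4, 6 of 7, 3 of 8, 2 of 2 and 3 of 9. In the same order 0, 4, 4, 2, 1 and 3 of those called were higher and 1, 0, 2, 1, 1 and 0 lower. Sgk1 was higher in oligodendrocyte-like (3.41), Mt1 in astrocyte-like (6.17) and Nfkbia in endothelial-like cells (4.85). Klf9 was lower in GABAergic-like (-2.06) and microglia-like cells (-3.64). The shares of all genes called in these fits were 14.0%, 65.7%, 66.3%, 29.5%, 65.9% and 52.3%. These genes could enter the clustering, so their values only describe the classes.

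The likeness of other genes was taken as Pearson's r of log2(CPM + 10) over the 8 named classes among 8830 genes with at least 100 UMIs. With 8 points that share libraries and classes, high values are to be had by many genes. Slc2a1 came closest to the haemoglobin genes Hbb-bt (0.95) and Hba-a1 (0.93) and to Id1 (0.92), which places the erythroid UMIs of the endothelial-like class beside it. Ankrd37 came closest to Abhd2 (0.96), Sdpr (0.96) and Senp1 (0.95), and Ddit4 to Prkd3 (0.95), Arhgdia (0.95) and Rdx (0.95). For Vegfa these were Rimklb (0.97), Chpt1 (0.96) and Gcsh (0.95), for Ldha Kdm5b (0.99), Fry (0.97) and Ptms (0.96), and for Pgk1 Dhx36 (0.99), Mrpl11 (0.98) and Hsf2 (0.96). Hif1a had Leprel2 (0.95), Arvcf and Bfar, Pdk1 had Tatdn3 (0.96), 4833420G17Rik and Rbm26, Bnip3 had Trappc8 (0.94), Ypel5 and Elp5, and Pfkfb3 had Tmed5 (0.95), Tmbim6 and Tmed7. None of the 10 genes was among the closest 3 of another.

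EPO was compared with placebo over mice, 3 against 3. Of the 10 genes none passed in all retained cells, in glutamatergic-like, in astrocyte-like or in oligodendrocyte-like cells, and none passed under any alternative. The background was equally empty, since edgeR called 0.0% of 10551 genes in all cells (138 at an unadjusted p under 0.05), 0.0% of 8777 in glutamatergic-like cells (143), 0.0% of 1444 in astrocyte-like cells (52) and 0.0% of 1681 in oligodendrocyte-like cells (30). DESeq2 called 1, 0, 0 and 0 genes in the same comparisons.

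**Figure D3:**
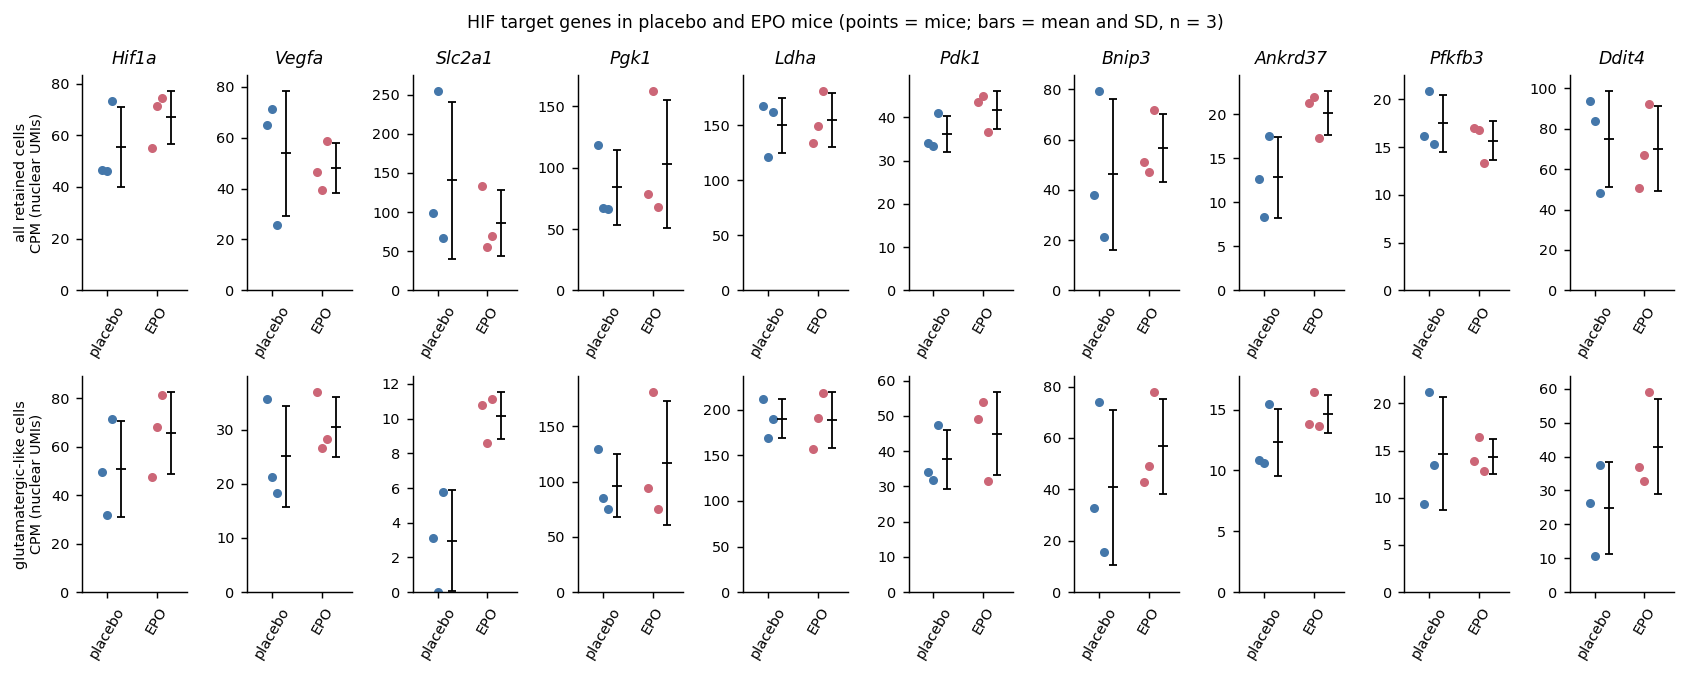
Level of each gene (vertical axis, UMIs per 1000000 nuclear-encoded UMIs, linear from 0) in placebo and EPO mice, in all retained cells (upper panels) and in glutamatergic-like cells (lower panels); points are mice, and the bars beside them are mean and SD of 3 mice. Placebo and EPO points overlap in every panel but Slc2a1 in glutamatergic-like cells, where 39 UMIs in all lie behind the 6 points. How many of all genes lie apart in this way was not counted.

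In all retained cells, Slc2a1 stood at 98.9, 255 and 67.4 CPM after placebo (mice 1, 3 and 5) and at 134, 55.0 and 69.2 CPM after EPO (mice 2, 4 and 6). The groups overlapped, and placebo mouse 3, the smallest library, was the highest. Its log2 difference of EPO against placebo was -0.68 (SE 0.50, edgeR adjusted p = 1.00), -0.27 with the D mark as a block and -0.00 without placebo mouse 3. Endothelial-like cells were 16 of 275, 9 of 90 and 17 of 319 cells in placebo mice 1, 3 and 5 and 13 of 253, 21 of 405 and 15 of 290 in EPO mice 2, 4 and 6. In a sum over all cells, fewer cells of a type and less RNA per cell cannot be told apart. Within endothelial-like cells, Slc2a1 stood at 1800 ± 344 CPM after placebo (SD, n = 2) and 2135 ± 971 CPM after EPO (SD, n = 3). Placebo mouse 3 had too few of these cells to enter, and this difference was not tested.

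Ankrd37 stood at 12.6, 8.37 and 17.6 CPM after placebo and at 21.2, 22.0 and 17.3 CPM after EPO, so only EPO mouse 6 lay within the placebo range. Its log2 difference was 0.48 (SE 0.35, edgeR adjusted p = 1.00), from 128 UMIs. Pdk1 held 34.2, 33.5 and 41.0 against 43.5, 45.01 and 36.6 CPM, a log2 difference of 0.14 (SE 0.24, adjusted p = 1.00). The other 7 genes lay between -0.13 (Pfkfb3) and 0.48 (Bnip3), with Hif1a at 0.20, Vegfa at -0.12, Ldha at -0.02 and Ddit4 at -0.12. The estimate was above 0 for 5 of the 10 genes, with a median of 0.06 beside -0.01 for all genes.

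In glutamatergic-like cells 9 genes could be tested, and Bnip3 had the largest difference. Mice 1, 3 and 5 (placebo) stood at 32.6, 74.1 and 15.4 CPM, mice 2, 4 and 6 (EPO) at 43.1, 49.3 and 77.8 CPM, and the groups overlapped. Its log2 difference was 0.99 (SE 0.41, edgeR adjusted p = 1.00), and over the alternatives it ranged from 0.40 to 1.33. Ddit4 stood at 0.47 (SE 0.34, adjusted p = 1.00), with placebo mice at 26.4, 10.6 and 37.6 CPM against 36.9, 32.8 and 59.0 CPM after EPO. Ldha stood at -0.08 (SE 0.22), Hif1a at 0.18 (SE 0.29), Pgk1 at 0.22 (SE 0.34) and Vegfa at 0.19 (SE 0.36). Of the 9, 8 estimates were above 0, with a median of 0.18 beside 0.00 for all genes. They come from the same cells and mice and are not independent. Only Bnip3 and Ddit4 kept their sign under every alternative, so no joint shift is read from this count.

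Slc2a1 had too few UMIs for the test in these cells. Mice 1, 3 and 5 (placebo) had 3.11, 0 and 5.79 CPM and mice 2, 4 and 6 (EPO) had 10.8, 8.60 and 11.1 CPM, which did not overlap, from 39 UMIs. With 3 mice against 3, some genes lie apart by chance. The share of all genes that do so was not counted, so no EPO effect is read from it. The fit without a filter gave 1.17 (SE 0.71, edgeR adjusted p = 0.996). Vegfa in astrocyte-like cells, its highest class, differed by 0.00 (SE 0.37, adjusted p = 0.999), and Pgk1 there by -0.63 (SE 0.58, adjusted p = 0.999). Ddit4 in oligodendrocyte-like cells differed by -0.11 (SE 0.34, adjusted p = 0.994). The difference of the EPO effect between astrocyte-like and glutamatergic-like cells was 0.43 (SE 0.71) for Ldha and -0.08 (SE 0.56) for Vegfa, both with an edgeR adjusted p = 1.00.

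The further HIF genes gave no call either, with 41, 37, 9 and 6 tested in all, glutamatergic-like, astrocyte-like and oligodendrocyte-like cells. The genes nearest to a call by edgeR were Cited2, which competes with HIF for its co-activator, in all cells (-0.69), Trf in glutamatergic-like cells (-1.59), the pyruvate kinase Pkm in astrocyte-like cells (0.94) and Mif in oligodendrocyte-like cells (0.53), with adjusted p-values of 0.994 to 1.00. Among immediate early genes 0 of 11, 8, 1 and 1 were called in the same comparisons, and among glucocorticoid-responsive genes 0 of 9, 9, 5 and 4.

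Co-variation was taken over cells within a mouse, as Pearson's r of log-normalized UMIs averaged over mice. In the 819 glutamatergic-like cells the highest values were among Pgk1, Ldha, Bnip3 and Ddit4. Pgk1 and Ldha correlated at 0.35, Pgk1 and Bnip3 at 0.29, Ldha and Ddit4 at 0.21, Ldha and Bnip3 at 0.20 and Pgk1 and Ddit4 at 0.18, whereas Bnip3 and Ddit4 correlated at 0.099, under the 95th percentile of all pairs. Over all 45 pairs the median was 0.045, with 37 above 0, beside a median of 0.031 over all pairs of 9107 detected genes, whose 5th and 95th percentiles were -0.040 and 0.156. Hif1a correlated at 0.12 with Pgk1, 0.09 with Ldha and -0.05 with Vegfa. Removing the shared cells of mouse 4 left the median at 0.044.

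**Figure D4:**
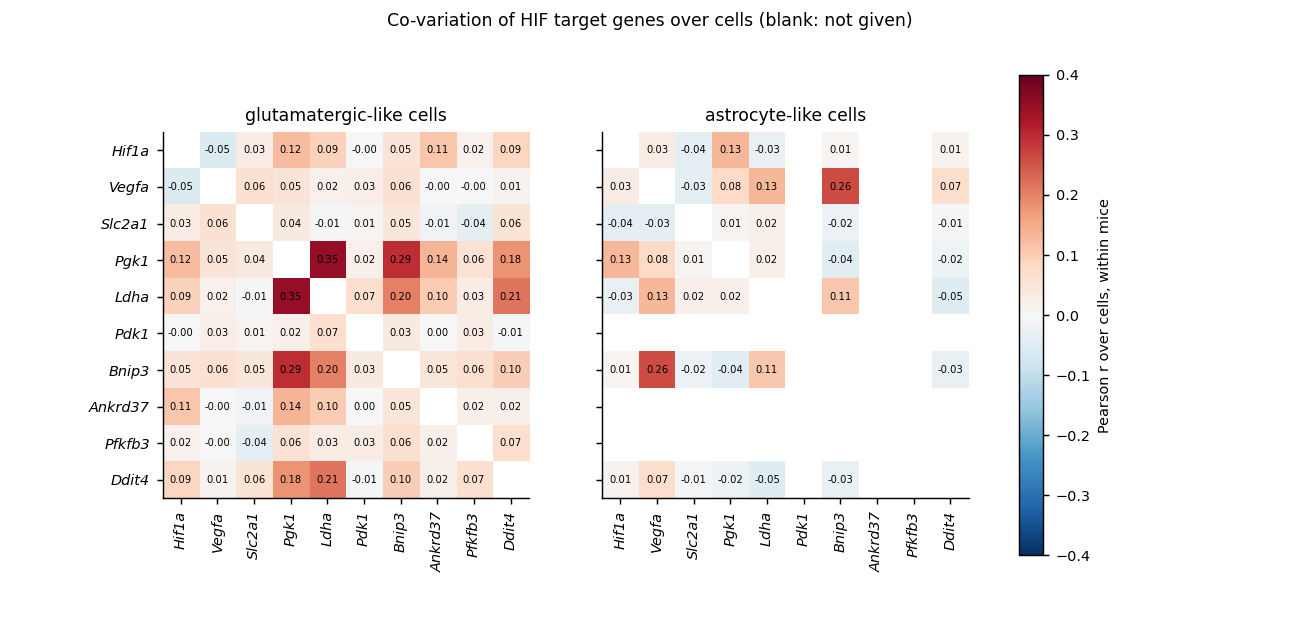
Pearson's r between each pair of genes over cells within mice (colour scale from -0.4 to 0.4), in glutamatergic-like cells (left) and astrocyte-like cells (right); blank cells in the right panel are pairs with a gene seen in under 5% of astrocyte-like cells. Pgk1 with Ldha (0.35) and Pgk1 with Bnip3 (0.29) are the highest pairs on the left, and Vegfa with Bnip3 (0.26) is the highest pair on the right.

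These 4 genes also followed the depth of the cell. Their r with the log of the cell's UMIs was 0.50 for Pgk1, 0.46 for Ldha, 0.34 for Bnip3 and 0.28 for Ddit4, against 0.08 to 0.17 for the other 6, and with the mitochondrial share it was -0.39, -0.38, -0.22 and -0.25. After thinning each cell to 800 UMIs the median over pairs was -0.014, beside 0.002 for all pairs, with few UMIs left for any gene. The 6 pairs of these 4 genes then lay between -0.021 (Bnip3 and Ddit4) and 0.098 (Ldha and Ddit4), and the highest of all 45 was 0.35 for Bnip3 and Pfkfb3, which were seen in 1.47% and 0.734% of the thinned cells. In the 232 astrocyte-like cells, 21 pairs had both genes in at least 5% of cells, with a median r of 0.011 beside 0.008 for all pairs, a limit set after the data were seen. Their highest value was 0.26 for Vegfa and Bnip3. Ddit4 in glutamatergic-like cells had its highest r with Klf9 (0.15) and Fkbp5 (0.13) of the glucocorticoid-responsive and with Egr1 (0.13) of the immediate early genes. All 3 lay under the 95th percentile of all pairs (0.156), and after thinning they were 0.032, 0.066 and 0.035.

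Glutamatergic-like cells were split at the median mitochondrial share of their own mouse. The same 4 genes were lower in cells of high mitochondrial share in each of the 6 mice. Pgk1 held 36.9, 17.9, 0, 23.9, 25.3 and 0 CPM in high-share cells of mice 1 to 6. In low-share cells of the same mice it held 154, 120, 116, 227, 90.1 and 88.3 CPM, and no values overlapped. Ldha held 125, 35.7, 77.6, 102, 106 and 63.3 CPM in high-share cells. In low-share cells it held 234, 199, 204, 217, 215 and 245 CPM, again without overlap.

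The mean log2 difference between high-share and low-share cells was -2.83 for Pgk1, -1.39 for Ldha, -1.84 for Bnip3 and -0.92 for Ddit4. Each was lower in 6 of 6 mice, with a two-sided exact permutation p = 0.03125, the smallest that 6 mice allow. The adjusted p = 0.0781 over the 10 genes does not pass 0.05. It could pass only if more of the 10 genes had reached that smallest p, so this failure says little about the 4 genes. Vegfa went the other way, at 49.98 ± 19.5 CPM in high-share and 21.2 ± 13.6 CPM in low-share cells (SD, n = 6), higher in 5 of 6 mice (1.33, exact permutation p = 0.0625, adjusted p = 0.125). Without the shared cells of mouse 4 the 4 genes kept these p-values, with -2.80, -1.38, -1.88 and -0.90. With more than 1000 genes per cell, Pgk1, Ldha and Bnip3 stayed lower in 6 of 6 mice, and Ddit4 in 5 of 6 (exact permutation p = 0.0938).

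**Figure D5:**
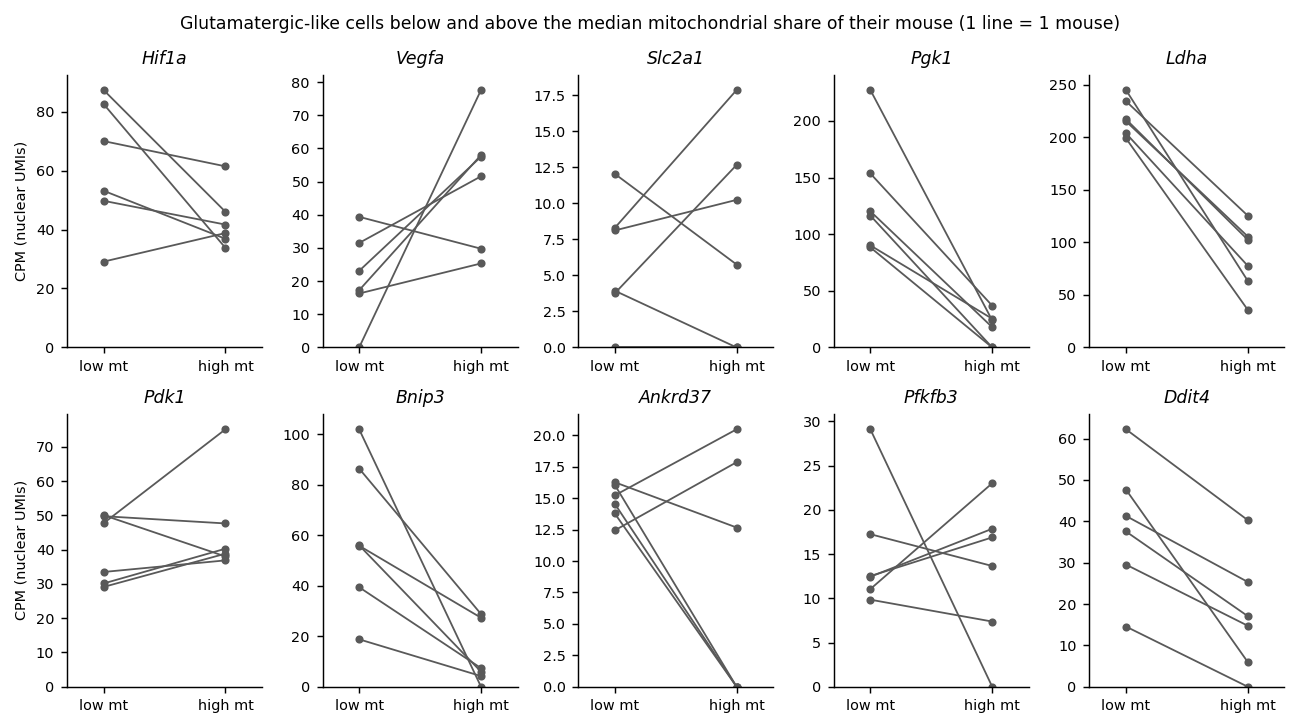
Level of each gene (vertical axis, UMIs per 1000000 nuclear-encoded UMIs, linear) in glutamatergic-like cells at or below (low mt) and above (high mt) the median mitochondrial share of their mouse; each line joins the 2 values of 1 mouse. All 6 lines fall for Pgk1, Ldha, Bnip3 and Ddit4, and 5 of 6 rise for Vegfa. Other genes were not split in this way.

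Depth and kind of neuron moved with this split. Median UMIs per cell were 1957 to 3256 in the high-share and 3375 to 10116 in the low-share cells of a mouse. Cluster 4, led by Spink8 and Hpca, held 0.245% of high-share and 37.0% of low-share cells, and cluster 8, led by Slc17a6 and Nts, held 0.735% and 20.9%. Cluster 0, led by Rxfp1 and Tshz2, held 49.8% and 9.25%, and cluster 5, led by Cpne7 and Onecut2, 28.2% and 6.08%. Cluster 2, led by Fibcd1 and Grin2b, was more even, with 21.1% and 26.8%. Pgk1 stood at 135 and 195 CPM in clusters 4 and 8, and at 20.6, 34.7 and 21.1 CPM in clusters 0, 2 and 5. Ldha followed with 269 and 218 against 83.6, 114 and 88.5 CPM, and Vegfa was highest in cluster 0 with 61.7 CPM. Mitochondrial share, depth and kind of neuron thus moved together in most clusters and were not separated here. Their part in the result was not tested.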

How the data were processed

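Single-cell RNA-seq (Drop-seq) of CA1 from 6 mice was analysed, with 3 mice per treatment and the mouse as the replicate. The authors deposited UMI counts that were not normalized, as 1 table with genes and barcodes. The submitters' processing notes name bcl2fastq 2.15, STAR 2.4.0 and the build mm10, and the annotation is not given in the sources used here. Missing values, which mark genes not seen in a mouse, were set to 0. Replicates were processed separately per the study's methods, so p-values measure the spread between mice, library preparation included.

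Retained cells had 501 to 8000 genes and at most 40% mitochondrial UMIs. The study's own limit of more than 1000 genes, which leaves 973 barcodes, was an alternative. Cells were integrated between treatments and clustered with Seurat 5.3.0 (R 4.3.3; 1463 genes, 20 dimensions, resolution 1), with the 10 genes and the HIF list left out of the clustering genes. One cluster of 28 cells led by haemoglobin genes stayed unnamed by a rule added after the data were seen. Doublets called with scanpy 1.11.5 (0.395% to 4.44% of cells per mouse) were kept, and their removal was an alternative.

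Levels are UMIs per 1000000 nuclear-encoded UMIs. Counts summed per mouse were tested with edgeR 4.0.16 (quasi-likelihood, TMM, filterByExpr, Benjamini-Hochberg at 5%), and the SE is the log2 fold change divided by the root of F. The tests were checked on simulated data. DESeq2 1.42.0 was an alternative. Shares are given after thinning to 800 UMIs with exact 95% binomial intervals, and a count of 0 allows 3 counts. Intervals and limits cover counting error only. The mitochondrial split used ratios with 0.5 UMI added to each side. Genes named are the 10, each whatever its values, then the genes of each further list with the smallest p-values, the first 5 called of the HIF list per comparison, and the 3 genes closest to each of the 10. Additional genes of these lists named for their role, and DESeq2's 1 call, were chosen after their values were seen. The 10 genes and all lists were chosen with earlier results of these data known.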

Additional observations from a re-analysis of the deposited data

Results flagged for a closer look

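Barcodes with at most 500 genes entered no comparison, and they held 412 UMIs of the 10 genes, which drew attention as signal in barcodes that were not used. There were 4292 such barcodes with 829776 nuclear-encoded UMIs. Averaged over mice, Vegfa stood there at 93.5 CPM, Slc2a1 at 86.9 CPM, Hif1a at 75.3 CPM, Ldha at 74.6 CPM, Ddit4 at 45.8 CPM and Ankrd37 at 8.86 CPM. The Slc2a1 level lies above that of glutamatergic-like cells (6.56 CPM) and far below that of endothelial-like cells (2001 CPM). Whether these barcodes are small cells or free RNA was not tested. No mouse was flagged against its group by Dixon's test in the 39 sets of values examined. With so few mice in a group this test can flag only extreme values, so the lack of a flag says little.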

How the results depend on the processing

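The EPO comparison called 0 genes in each cell set. DESeq2 called 1 in all cells (Rarres2), and without the filter on low counts edgeR called 21 in all, 10 in glutamatergic-like, 53 in astrocyte-like and 1 in oligodendrocyte-like cells, with 1 in astrocyte-like cells above 1000 genes per cell. Leaving out 1 mouse gave 0 to 0 calls, but 0 to 6 in glutamatergic-like cells, with 6 without placebo mouse 5. None were among the 10 genes. Of the 10, the calls in GABAergic-like cells were 1 with DESeq2, without the filter and without integration (1 to 2 leaving out a mouse), in astrocyte-like cells 5 without the filter and 4 above 1000 genes (2 to 4), in oligodendrocyte-like cells 5 without the filter (2 to 4), in microglia-like cells 3 without the filter and 0 without doublets (0 to 3, with 0 without EPO mouse 2 or 6 and 3 without placebo mouse 3), and in endothelial-like cells 4 to 5. The cause was not tested. The median share of glutamatergic-like cells with a UMI, over the 10 genes, was 2.51% thinned and 14.8% unthinned, and the median r turned to -0.014 in glutamatergic-like and -0.035 in astrocyte-like cells after thinning, which leaves fewer UMIs.

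Estimates that turned sign were uncalled throughout. In all cells these were Vegfa with the D mark as a block (0.18; -0.53 to 0.18 leaving out a mouse), Ldha without the filter (0.011), above 1000 genes (0.054), at most 20% mitochondrial UMIs (0.068) and without shared cells of both mice (0.018; -0.12 to 0.093), Pfkfb3 at most 20% (0.025), Pgk1 (-0.27 to 0.62) and Ddit4 (-0.40 to 0.15). In glutamatergic-like cells they were Hif1a without shared cells of both mice (-0.031), Ankrd37 at most 20% (-0.035; -0.017 to 0.38), Vegfa (-0.20 to 0.66), Pgk1 (-0.28 to 0.59), Ldha (-0.17 to 0.035), Pdk1 (-0.059 to 0.36) and Pfkfb3 (-0.025 to 0.30). Vegfa in astrocyte-like cells stood at -0.023 with DESeq2, -0.011 with RLE, -0.043 with the D block, -0.14 above 1000 genes, -0.12 at most 20% and -0.051 without the shared cells of mouse 4 (-0.37 to 0.26), and Ddit4 in oligodendrocyte-like cells at 0.20 without shared cells of both mice (-0.31 to 0.16). In endothelial-like cells Ldha stood at -0.16 with DESeq2, -0.14 with RLE, -0.35 without the filter, -0.039 without doublets and -0.018 without the shared cells (-0.11 to 0.16), and Bnip3 at -0.088 without the filter (-0.045 to 0.50).

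No paired analysis was possible because mouse numbers do not repeat between treatments. The D mark was fitted as a block and gave no call among the 10 genes. Removal of shared cells was chosen after seeing the data. Not run were the limit of 1000 genes in GABAergic-like, OPC-like and microglia-like cells, in endothelial-like cells, and OPC-like cells with a mouse left out, where too few mice remained.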
